A study of Saccharomyces cerevisiae with 6 samples.

Results

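Inorganic polyphosphate is a chain of phosphate units that budding yeast stores mainly in the vacuole. It is made and threaded across the vacuolar membrane by the vacuolar transporter chaperone (VTC) complex and is cut back by polyphosphatases. The 6 genes described here were taken by name: VTC4, which encodes the subunit that polymerises the chain, VTC1, which encodes a small membrane subunit, VTC2 and VTC3, which encode accessory subunits found in different forms of the complex, PPX1, a cytosolic exopolyphosphatase, and PPN1, a vacuolar polyphosphatase. Each had 1 probe set, and all 6 were among the 4915 genes tested, of 5449 with a probe set.

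Transcript levels were measured on 6 Affymetrix Yeast Genome 2.0 arrays, 2 for each of 3 strains: a strain lacking EOS1 (delta eos1), a strain lacking IZH2 (delta izh2) and the wild type BY4741, from which both deletions were made. Eos1 is a membrane protein of the endoplasmic reticulum and Izh2 a membrane protein linked to zinc metabolism, and the series was made to study a role of Eos1 in zinc homeostasis. BY4741 is a haploid laboratory strain of mating type a, and all 3 strains share its loss of HIS3, LEU2, MET17 and URA3 function. Cultures were grown in rich medium (YPD) at 30 degrees Celsius, shaken at 150 rpm and harvested in log phase at an optical density of 1.0. The series' text speaks of independent experiments, but not of whether a deletion strain is 1 clone or several. P values rest on the spread between arrays of the same strain, pooled over the 3 strains and drawn toward that of other genes of like signal. The arrays are few, which limits how precise a value can be. A signal is an average over a culture, so that fewer expressing cells and less RNA per cell cannot be told apart.

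The arrays matched the labelled deletions. EOS1 had signals of 0.42 and 2.70 in the eos1 deletion, against 694 and 692 in the wild type, at least 51.6-fold lower with the dim signals set at each array's background (the 95th percentile of probe sets for another organism's genes). IZH2 had 3.46 and 1.12 in the izh2 deletion, against 3543 and 2390 in the wild type, at least 284-fold lower. LEU2, MET17 and URA3 had signals of at most 29.2 on every array, and HIS3, whose allele in this background is a partial deletion, gave 1269 to 2422. The eos1 deletion arrays stood apart from the others. The median log2 fold change of all tested genes was 0.21 against the wild type, whereas izh2 deletion arrays gave -0.11. Genes of chromosome II lay above the other genes by 0.85 and 0.84 on the log2 scale on the eos1 deletion arrays, against -0.02 and -0.01 on the izh2 deletion arrays, with the wild-type mean set to 0. None of the 6 polyphosphate genes lies on that chromosome. Of the mating-type markers, MFA1 (a-factor) and STE2 (alpha-factor receptor) of a cells were both called lower, with STE2 at 2324 and 2262 in the eos1 deletion, against 4397 and 5608 in the wild type. STE3 (a-factor receptor) of alpha cells, too dim to be tested, had signals of 144 and 121 in the eos1 deletion, against 47.2 and 45.3 in the wild type. The median log2 ratio of 5′ to 3′ probe sets of 7 yeast control genes, a sign of RNA quality, was -0.76 and -1.01 on the eos1 deletion arrays, -1.05 and -1.20 on the izh2 deletion arrays and -1.82 and -1.28 on the wild-type arrays. The part of these differences in the results was not tested. Values without chromosome II genes, given below, are no such test. With signals as deposited, leaving these genes out does not change a member's log2 fold change. It changes only the set of genes used for the spread and the adjustment of p values.

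In the eos1 deletion the transcripts of all 4 VTC genes lay lower than in the wild type on both arrays, by 1.32- to 1.72-fold. This held for 8.83% of all tested genes. The polyphosphatase genes PPX1 and PPN1 overlapped with the wild type, though PPX1 lay lower by 1.36-fold, more than VTC1. With signals as deposited, VTC3 passed the test and the other 5 did not, where 0.712% of all tested genes were called lower. After each array was centred on the median of its tested genes, VTC1, VTC3 and VTC4 passed, and lay lower by 1.55-, 2.01- and 1.89-fold. Of all tested genes 2.24% were then called lower. Both arrays of the eos1 deletion then lay below the wild type for all 6 genes, against 26.9% of all tested genes. In the izh2 deletion none of the 6 genes passed the test, with an adjusted p of 0.998 for each (limma, linear models with Benjamini-Hochberg adjustment over all tested genes, threshold 0.05).

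VTC4 (YJL012C, chromosome X) had signals of 1973 and 1922 on the eos1 deletion arrays, 3231 and 3009 on the izh2 deletion arrays and 3103 and 3154 on the wild-type arrays. Both eos1 deletion arrays lay below the 4 others, which were within a narrow band. Set against the wild type, the eos1 deletion had a VTC4 log2 fold change of -0.68 ± 0.19 (SE, n = 2 each, limma, adjusted p = 0.061), and -0.92 ± 0.16 after median centring (adjusted p = 0.014). VTC4 passed with signals as deposited when dim genes were tested too (adjusted p = 0.048). The centred call did not survive the removal of eos1 deletion array 1 (adjusted p = 0.11) or array 2 (0.057).

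VTC1 (YER072W, chromosome V) had signals of 5274 and 4479 on the eos1 deletion arrays, 6579 and 5636 on the izh2 deletion arrays and 6136 and 6719 on the wild-type arrays. The eos1 deletion arrays were again the lowest pair, but the gap to the next array was small, and VTC1 had the smallest log2 fold change of the VTC genes, -0.40 ± 0.16 (SE, n = 2 each, limma, adjusted p = 0.17). After median centring it was -0.63 ± 0.15 (adjusted p = 0.038). That call was lost without chromosome II genes (adjusted p = 0.11) and with any array removed other than wild-type array 1, the adjusted p reaching 0.18.

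VTC3 (YPL019C, chromosome XVI) had signals of 3426 and 2816 on the eos1 deletion arrays, 5100 and 5260 on the izh2 deletion arrays and 5626 and 5045 on the wild-type arrays. It had the largest fall of the 6 genes, with a log2 fold change of -0.78 ± 0.17 (SE, n = 2 each, limma, adjusted p = 0.024). After median centring it was -1.01 ± 0.14 (adjusted p = 0.0077), and the call then held on leaving out each of the 6 arrays in turn, with adjusted p up to 0.044. With signals as deposited VTC3 no longer passed when eos1 deletion array 2 (adjusted p = 0.093), wild-type array 1 (0.096), izh2 deletion array 1 (0.0508) or izh2 deletion array 2 (0.0507) was removed, nor when chromosome II genes were (0.061).

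VTC2 (YFL004W, chromosome VI) had signals of 1771 and 2036 on the eos1 deletion arrays, 3116 and 2764 on the izh2 deletion arrays and 3032 and 2420 on the wild-type arrays. Both eos1 deletion arrays lay below the 4 others. After median centring these 2 arrays differed by 0.46 on the log2 scale, against a median difference of 0.20 over all tested genes. Its log2 fold change in the eos1 deletion was -0.51 ± 0.22 (SE, n = 2 each, limma, adjusted p = 0.198), and -0.75 ± 0.19 after median centring (adjusted p = 0.056). The centred value passed once wild-type array 2 was removed (adjusted p = 0.048).

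**Figure D1:**
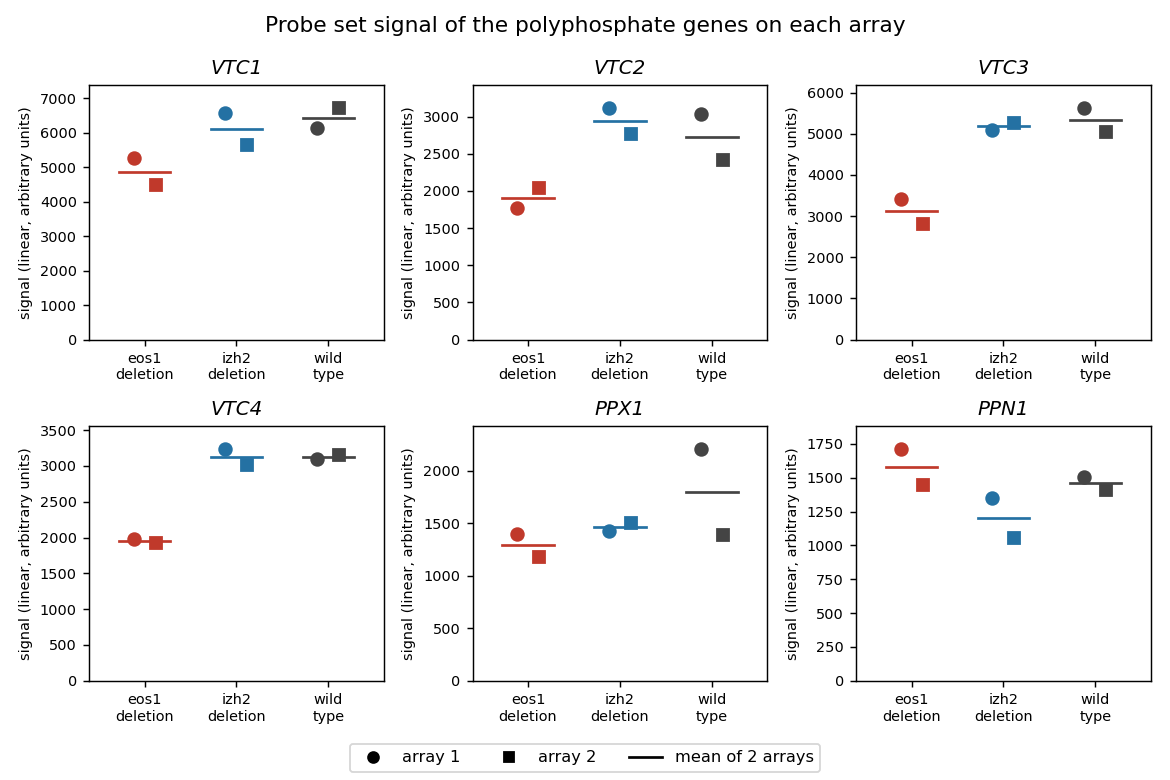
Signal of the probe set of each polyphosphate gene on each array (y axis, linear scale in arbitrary units, each panel from 0), by strain. Circles are the first array, squares the second and bars the mean of both. The eos1 deletion arrays lie below the other 4 in each VTC panel, for VTC4 at 1973 and 1922 against 3009 or more, while the eos1 deletion and wild-type arrays overlap for PPN1.

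The genes for polyphosphate breakdown gave no call in any of the 3 comparisons. PPX1 (YHR201C, chromosome VIII) had signals of 1398 and 1184 on the eos1 deletion arrays, 1425 and 1503 on the izh2 deletion arrays and 2205 and 1386 on the wild-type arrays. The wild-type arrays thus differed by more than the strains' means. Its log2 fold change in the eos1 deletion was -0.44 (95% interval -1.03 to 0.15, adjusted p = 0.37, limma), and -0.67 after median centring (adjusted p = 0.095). With wild-type array 2 removed the centred value was -0.95 and passed (adjusted p = 0.021), and with wild-type array 1 removed it was -0.40 and did not.

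PPN1 (YDR452W, chromosome IV) had signals of 1710 and 1444 on the eos1 deletion arrays, 1353 and 1057 on the izh2 deletion arrays and 1506 and 1409 on the wild-type arrays. It was the only one of the 6 genes whose log2 fold change in the eos1 deletion lay above 0, at 0.11 (95% interval -0.42 to 0.64, adjusted p = 0.82, limma). After median centring the sign turned, at -0.12 (adjusted p = 0.75). These intervals do not show that PPN1 was the same in both strains.

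Of the 6 polyphosphate genes 1 was called lower and 0 higher in the eos1 deletion against wild type, where 0.712% of all tested genes were called lower and 6.43% higher. After median centring 3 were called lower, against 2.24% of all tested genes. Both eos1 deletion arrays lay below both wild-type arrays for 4 of the 6 genes, which was so for 8.83% of all tested genes. After median centring it held for all 6, against 26.9% of all tested genes. The median log2 fold change of the 6 genes was -0.48, against 0.21 over all tested genes. Of all tested genes 1.14% had a lower log2 fold change than VTC3, 1.65% than VTC4, 2.87% than VTC2, 3.85% than PPX1, 4.60% than VTC1 and 37.9% than PPN1.

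**Figure D2:**
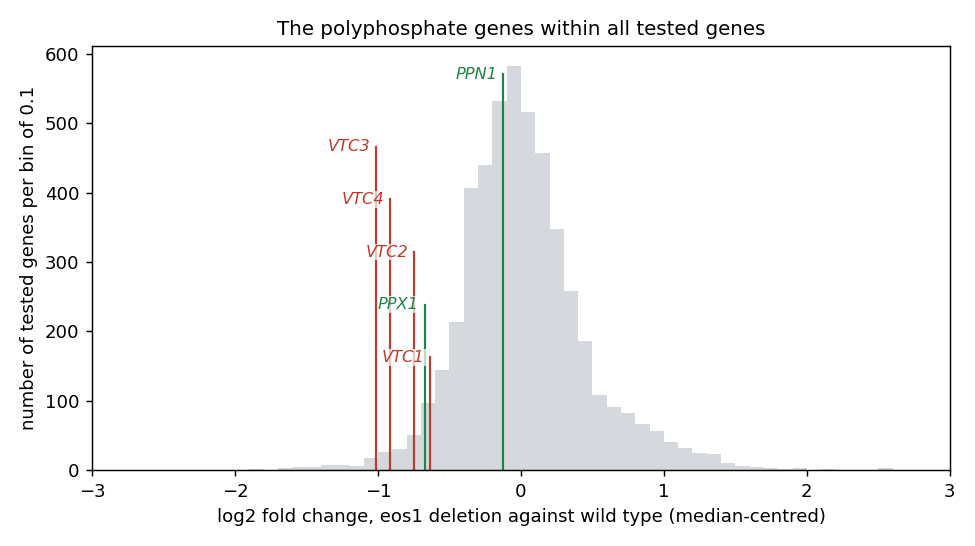
Number of tested genes (y axis) by log2 fold change of the eos1 deletion against the wild type after median centring (x axis, bins of 0.1). Labelled lines mark the VTC genes (red), between -1.01 and -0.63, and the polyphosphatase genes (green), with PPX1 at -0.67 and PPN1 at -0.12. Line heights carry no value, and 7 genes lie beyond the plotted range.

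The eos1 and izh2 deletions were compared directly, which tests whether the effects of the deletions differ from each other. This comparison shares the eos1 deletion arrays with the one above and the izh2 deletion arrays with the one below. The log2 fold changes of the eos1 deletion against the izh2 deletion were -0.74 ± 0.17 for VTC3 (limma, adjusted p = 0.019) and -0.68 ± 0.19 for VTC4 (adjusted p = 0.043). VTC2 had -0.63 ± 0.22 (adjusted p = 0.088) and VTC1 -0.33 ± 0.16 (adjusted p = 0.20, all SE, n = 2 each). Thus 2 of the 6 genes were called lower, where 0.712% of all tested genes were. Both eos1 deletion arrays lay below both izh2 deletion arrays for 5 members, against 6.45% of all tested genes, and above them for PPN1, against 54.7%.

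The median of all tested genes was 0.31 in this comparison. After median centring all 4 VTC genes were called lower than in the izh2 deletion, against 3.93% of all tested genes, with log2 fold changes of -0.67 (VTC1, adjusted p = 0.023), -0.98 (VTC2, adjusted p = 0.017), -1.09 (VTC3, adjusted p = 0.0034) and -1.03 (VTC4, adjusted p = 0.0080). In the centred values VTC3 was the 1 member called with eos1 deletion array 1 or izh2 deletion array 2 removed. VTC3 and VTC4 were called with izh2 deletion array 1 removed, and VTC2, VTC3 and VTC4 with eos1 deletion array 2 removed. PPX1 had -0.19 and PPN1 0.39, neither of which passed (adjusted p = 0.66 and 0.29), and after centring PPN1 had 0.04. With signals as deposited VTC3 lost its call once eos1 deletion array 2 (adjusted p = 0.073), izh2 deletion array 1 (0.088) or izh2 deletion array 2 (0.14) was removed. The VTC4 call survived the removal of wild-type array 1 (adjusted p = 0.0499) but of no other array (0.053 to 0.195), nor that of chromosome II genes (0.070).

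In the izh2 deletion none of the VTC genes passed the test, and the intervals of their differences lay on both sides of 0. Log2 fold changes against the wild type were -0.08 for VTC1 (95% interval -0.43 to 0.28), 0.12 for VTC2 (-0.36 to 0.59), -0.04 for VTC3 (-0.43 to 0.34) and -0.005 for VTC4 (-0.43 to 0.42). PPX1 had -0.26 (-0.85 to 0.33) and PPN1 -0.29 (-0.81 to 0.24). Of the 6 genes 0 were called in either direction, where 0.0203% of all tested genes were, namely IZH2 alone (limma, with 104 genes at an unadjusted p under 0.05). PPN1 was the 1 member whose izh2 deletion arrays both lay below both wild-type arrays, as did those of 22.9% of all tested genes. In the centred values this still held for PPN1, against 12.5% of all tested genes. For VTC2, VTC3 and VTC4 both izh2 deletion arrays then lay above both wild-type arrays, against 13.1% of all tested genes. After median centring VTC1, VTC3 and VTC4 turned sign to 0.04, 0.08 and 0.11, still uncalled.

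**Figure D3:**
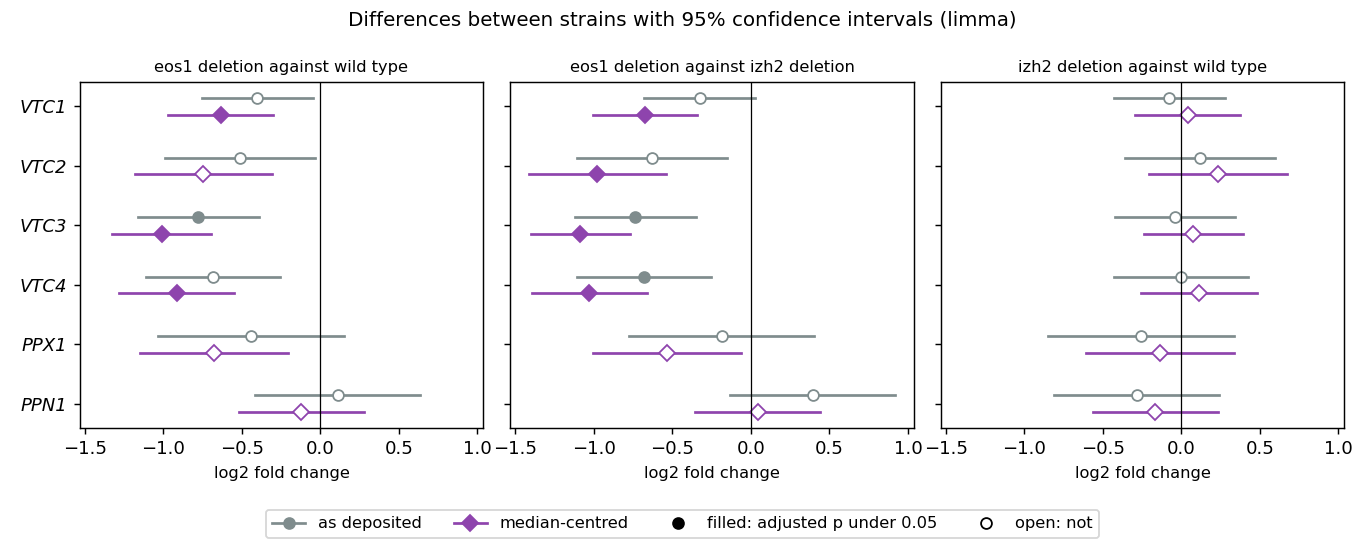
Log2 fold change (x axis) of each polyphosphate gene in the 3 comparisons, with signals as deposited (grey) and after median centring (purple). Bars are 95% confidence intervals from limma with 2 arrays per strain, and filled symbols passed an adjusted p under 0.05. VTC3 is filled in both settings in the panels of the eos1 deletion, and 0 symbols are filled in the panel of the izh2 deletion against the wild type.

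A contrast within each array does not depend on a scaling factor common to all probe sets of that array. A scaling that varies with the signal would still enter it. The mean log2 signal of the VTC genes minus that of PPX1 and PPN1, set to 0 at the wild-type mean, was -0.50 and -0.35 on the eos1 deletion arrays, 0.26 and 0.28 on the izh2 deletion arrays and -0.15 and 0.15 on the wild-type arrays. Against PPN1 alone the VTC mean was -0.78 and -0.63 on the eos1 deletion arrays, 0.16 and 0.40 on the izh2 deletion arrays and -0.01 and 0.01 on the wild-type arrays. The eos1 deletion arrays were the lowest of the 6 in both of these contrasts, but not against PPX1 alone. After median centring, with the wild-type mean at 0, the VTC mean was -0.91 and -0.74 on the eos1 deletion arrays. PPX1 had -0.69 and -0.66 there. On the wild-type arrays the VTC mean was -0.02 and 0.02, and PPX1 had 0.27 and -0.27. Against PPX1 alone wild-type array 1 was thus the lowest.

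Probe sets for 18S ribosomal RNA split the arrays by number: the signal at the 3′ end was 682, 805 and 3968 on the first arrays of the eos1 deletion, the izh2 deletion and the wild type, and 29.5, 67.1 and 41.6 on the second. Differences between same-numbered arrays are therefore also given. VTC3 was lower in the eos1 deletion than in the wild type by a log2 difference of -0.72 between first arrays and -0.84 between second arrays, and VTC4 by -0.65 and -0.71. VTC1 had -0.22 and -0.59, VTC2 -0.78 and -0.25, and PPX1 -0.66 and -0.23. PPN1 had 0.18 and 0.04. Each of the members thus had the same sign in both pairs, with VTC1, VTC2 and PPX1 less even than VTC3 and VTC4. The share of all tested genes with the same sign in both pairs was not counted.

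Over the 6 arrays, after median centring, the profiles of the VTC genes correlated with each other at Pearson's r between 0.88 (VTC1 and VTC2) and 0.98 (VTC3 and VTC4), and PPX1 correlated with them at 0.69 (VTC1) to 0.86 (VTC3). PPN1 correlated with the VTC genes at 0.077 to 0.26. These values describe arrays of 3 strains, and arrays of a strain share its genotype. The 5 other tested genes nearest to the mean VTC profile, by root mean square difference over the 6 arrays, were RIX7 and RIX1, both needed to make the large ribosomal subunit, URA4, the dihydroorotase of pyrimidine synthesis, FPR4, a nuclear prolyl isomerase, and NOP13, a nucleolar protein. As the nearest of all other tested genes were taken, both their closeness and their falls given below follow from the choice. Neither adds support to the VTC values. The root mean square differences of these 5 genes ran from 0.073 for RIX7 to 0.084 for NOP13 on the log2 scale. Of the VTC genes themselves VTC4 had 0.054, VTC3 0.109, VTC2 0.121 and VTC1 0.139, so that all but VTC4 lay farther from their own mean profile than these 5 genes. Their centred log2 fold changes in the eos1 deletion lay between -0.96 (FPR4, adjusted p = 0.012) and -0.75 (RIX7, adjusted p = 0.041), and with signals as deposited none of the 5 passed (limma, adjusted p from 0.052 for FPR4 to 0.198 for RIX7). On leaving out single arrays the centred call of RIX7 held in 0 of 6 fits and that of FPR4 in 5 of 6, all but the one with eos1 deletion array 1 removed. RIX1 and URA4 lost theirs with either eos1 deletion array removed, and NOP13 with either of these or wild-type array 1 removed.

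The VTC genes and PPN1 are known targets of the phosphate (PHO) pathway, in which the activator Pho4 is kept inactive by the kinase Pho80-Pho85 until the inhibitor Pho81 acts in low phosphate. Of 14 other PHO targets 11 were tested. In the eos1 deletion against the wild type 4 fell and 0 rose, or 5 and 0 after median centring. The fifth was PHO8, the vacuolar alkaline phosphatase, named after its value was seen. Of all tested genes 0.712% were called lower and 6.43% higher there, or 2.24% and 4.25% after median centring. The list median was -0.62 with signals as deposited. The 4 falls were larger than that of VTC3, and all 4 held on leaving out each of the 6 arrays in turn. PHO11, an acid phosphatase whose probe set may also read its near-identical copy PHO12, had 435 and 363 in the eos1 deletion, against 5656 and 5592 in the wild type (log2 fold change -3.82, limma, adjusted p = 6.9e-06). SPL2, an inhibitor of low-affinity phosphate uptake, had 315 and 218, against 2674 and 1815 (-3.07, adjusted p = 0.0011). PHM6 had -3.40 (adjusted p = 0.0019), and PHO5, the main secreted acid phosphatase in low phosphate, encoded on chromosome II, had -1.35 (adjusted p = 0.0066). The izh2 deletion gave 0 calls among the 11 targets when set against the wild type, where 0.0203% of all tested genes were called.

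Set against the izh2 deletion, the eos1 deletion had 4 of the 11 PHO targets called lower and 2 higher, or 6 and 2 after median centring. Of all tested genes 0.712% were called lower and 12% higher in this comparison, or 3.93% and 6.65% after median centring. The 2 higher targets are thus near the share over all tested genes with signals as deposited. Named here after their values were seen, they were PHM8, a phosphatase gene, and GPP2, which encodes a glycerol phosphatase. PHM8 had signals of 1246 and 488 on the eos1 deletion arrays, against 215 and 273 on the izh2 deletion arrays (log2 fold change 1.68, limma, adjusted p = 0.016). GPP2 had 3786 and 2718 on the eos1 deletion arrays, against 1455 and 904 on those of the izh2 deletion (1.48, adjusted p = 0.0071). The PHM8 call was lost with eos1 deletion array 1 (adjusted p = 0.081) or either izh2 deletion array removed, and the GPP2 call with izh2 deletion array 2 removed (0.085). Against the wild type neither passed, at 0.95 for PHM8 and 0.98 for GPP2 (adjusted p = 0.18 and 0.067).

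Further lists of genes around polyphosphate were set beside the members. Vtc2, Vtc3 and Vtc4 carry SPX domains, which bind inositol pyrophosphates and sense the phosphate supply. Of 6 other genes for SPX proteins 0 passed in the eos1 deletion against the wild type, where 7.14% of all tested genes were called. After median centring 1 fell, PHO81, where 2.24% of all tested genes were called lower. PHO81 had signals of 997 and 946 in the eos1 deletion, against 2021 and 1452 in the wild type. Its log2 fold change was -0.82 (limma, adjusted p = 0.080), and -1.05 after centring (adjusted p = 0.017). With eos1 deletion array 1 or 2 removed the centred PHO81 value no longer passed (adjusted p = 0.11 and 0.063). PHO87 and PHO90, low-affinity phosphate transporters, had 0.63 and -0.39 (adjusted p = 0.19 and 0.34), opposite in sign and both uncalled. In the direct comparison with the izh2 deletion PHO81 and PHO90 were called lower after median centring, as were 3.93% of all tested genes, and not with signals as deposited. Neither call survived the removal of any eos1 or izh2 deletion array.

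Of 6 genes for inositol phosphate and pyrophosphate synthesis and turnover (KCS1, VIP1, SIW14, ARG82, IPK1 and PLC1) 0 passed in the eos1 deletion against the wild type, where 7.14% of all tested genes were called. Their log2 fold changes lay between -0.22 (VIP1) and 0.54 (IPK1). Between the eos1 and izh2 deletions 12% of all tested genes were called higher in the eos1 deletion with signals as deposited. IPK1, the kinase that completes inositol hexakisphosphate, was called higher in the eos1 deletion than in the izh2 deletion with signals as deposited (1.03, limma, adjusted p = 0.038), a call lost after centring (0.68, adjusted p = 0.13) and with eos1 deletion array 1 or either izh2 deletion array removed. PHO81, the gene of the PHO pathway's inhibitor, is given above with the SPX genes. It was called lower after median centring and not with signals as deposited. The other PHO regulators PHO2, PHO4, PHO80 and PHO85 gave 0 calls in the eos1 deletion against the wild type. Their log2 fold changes there ran from 0.07 to 0.35, or from -0.16 to 0.12 after median centring. Against the izh2 deletion they also gave 0 calls, with values from -0.35 to 0.27 with signals as deposited.

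The vacuolar proton pump (V-ATPase) builds the gradient on which polyphosphate synthesis depends. Of 17 genes for its subunits and assembly factors 0 passed in the eos1 deletion against the wild type, where 7.14% of all tested genes were called. Their median log2 fold change was -0.08, or -0.31 after median centring. VMA2, a subunit of the ATP-cleaving part encoded on chromosome II, had the highest value, 0.49 (limma, adjusted p = 0.14), and it was called higher than in the izh2 deletion with signals as deposited (0.70, adjusted p = 0.029) but not after centring (0.35, adjusted p = 0.26), nor with either eos1 deletion array or izh2 deletion array 2 removed. DDP1, a phosphohydrolase that also cuts polyphosphate, had 0.04 (adjusted p = 0.93). VTC5 and PPN2, a further VTC subunit and polyphosphatase, were not analysed here.

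**Figure D4:**
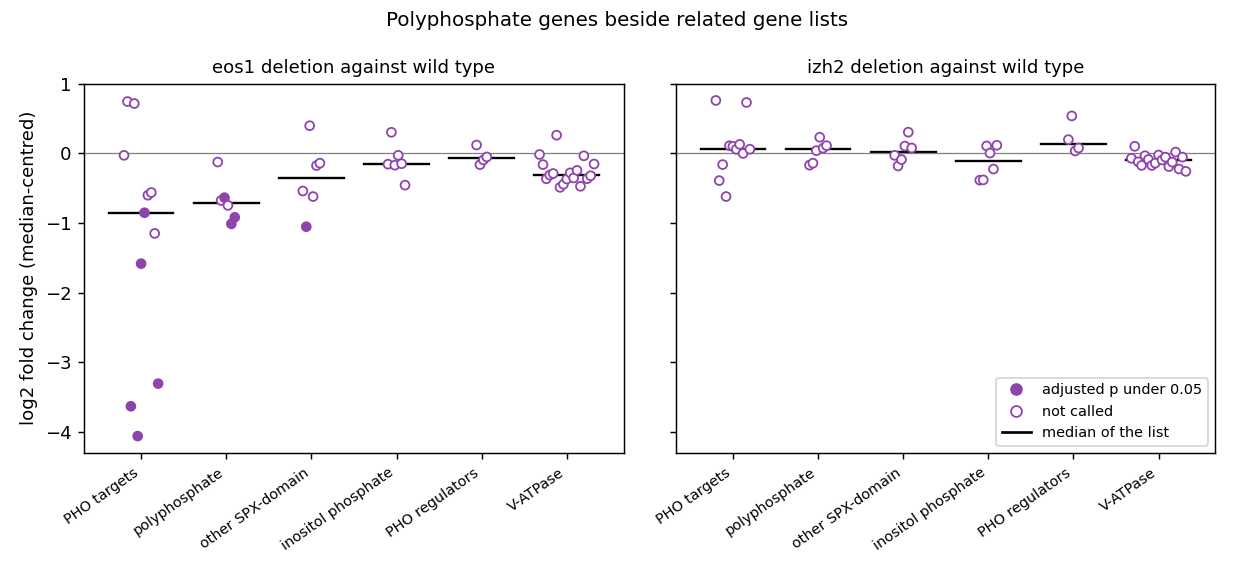
Log2 fold change after median centring (y axis) of each tested gene of 6 lists (x axis), for the eos1 deletion (left) and the izh2 deletion (right) against the wild type. Filled points passed an adjusted p under 0.05 and bars are list medians. PHO targets reach -4.06 (PHO11) in the eos1 deletion, the polyphosphate genes lie between -1.01 and -0.12 there, and 0 points are filled on the right.

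The first tested gene on either side of each member along the chromosome was also read, 12 genes in all. Their centred log2 fold changes in the eos1 deletion lay between -0.54 and 1.45. Of them 1 was called, TSA2 next to PPN1, a thioredoxin peroxidase gene named here after its value was seen, which was higher. Over all tested genes 6.49% were called after median centring, so that 1 of 12 is near the general share. No neighbour lay as low as VTC1, the VTC gene nearest to 0. Only 4.60% of all tested genes did, so 12 neighbours are too few to set the surroundings of the members apart from other genes.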

How the data were processed

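The values deposited by the authors are array signal intensities, linear and unlogged, 1 for each of 10928 probe sets on each array. GCOS made them, per the submitters' processing notes, and GeneSpring 7.3.1 is named for the statistics in the series' design text. The sources used here do not give the scaling between arrays. Genes were assigned from GEO's platform annotation, with symbols, chromosomes and neighbours looked up in an R64 gene table. Where probe sets shared a gene, the brightest stood for it.

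Signals under 1 were set to 1 and log2 taken, with no normalization in the main setting. Tested genes had a mean log2 signal over 6.50 (a signal of 90.5), the 95th percentile of probe sets naming no S. cerevisiae gene, control probe sets included. A single limma 3.58.1 model in R 4.3.3 held all 6 arrays (eBayes with an intensity trend, 3 residual and 7.41 prior degrees of freedom, two-sided). The model was also run on simulated data with independent noise and no shift of a whole chromosome or array. That run does not show how the model fares on these arrays. Because the median of all genes differed between strains, values after median centring stand beside. Other scalings, floors, filters, fits and left-out arrays were tried too. The members, gene lists and rules for naming genes (the members, short lists, smallest p of longer lists and nearest profiles) were chosen with earlier results of these data known.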

Additional observations from a re-analysis of the deposited data

How the results depend on the processing

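Alternatives that combine centring with another choice, the crossed pairing and the filter without control probe sets were chosen after seeing the data. In the eos1 deletion against wild type 351 genes were called, against 95 with the stricter filter on dim genes, 226 with only the 2 strains in the fit, 59 without chromosome II genes, 82 when these were also centred, and 160 to 415 on leaving out single arrays (87 to 394 when centred). Of the polyphosphate genes 1 was called there, against 3 with median centring or quantile normalization, 2 with no filter on dim genes, and 0 without an intensity trend, with only the 2 strains or without chromosome II genes (2 when centred). Leaving out single arrays gave 0 to 1 (1 to 4 when centred). Between the eos1 and izh2 deletions 623 genes were called, against 139 with the stricter filter, 251 without chromosome II genes (210 centred) and 82 to 879 on leaving out single arrays (84 to 714 centred). The polyphosphate genes gave 2 calls there, against 4 with median centring, quantile normalization or centring without chromosome II genes, 1 with the stricter filter (which drops PPX1 and PPN1), with only the 2 strains or without chromosome II genes, and 0 to 2 on leaving out single arrays (1 to 4 centred). In the izh2 deletion against wild type 1 gene was called, against 4 with the stricter filter and 1 to 25 on leaving out single arrays (1 to 7 centred), with 0 polyphosphate genes in each of these. The cause of these changes was not tested, beyond the fewer genes or arrays in the fit.

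The replicate numbers were not treated as pairs. Signals for 18S ribosomal RNA followed the number in every strain, but over all tested genes the differences between a strain's 2 arrays gave mixed correlations between strains, at 0.48 (eos1 deletion with wild type), -0.34 (izh2 deletion with wild type) and 0.088 (both deletions). With the replicate block 2 polyphosphate genes were called in the eos1 deletion against wild type (3 when centred), as VTC4 then passed with signals as deposited (adjusted p = 0.039, and 0.042 with the crossed block), 2 in the eos1 against the izh2 deletion (4 when centred) and 0 in the izh2 deletion against wild type, and genes called numbered 428, 740 and 1 in the same order. The crossed replicate block called 637, 1006 and 2 genes, and 2, 2 and 0 polyphosphate genes.

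Signs turned only for values that did not pass the test. PPN1 in the eos1 deletion against the wild type had -0.12 with median centring (also with the replicate block), -0.089 with quantile normalization, -0.065 when centred without chromosome II genes, and -0.012 to 0.23 on leaving out single arrays (-0.14 to -0.11 centred). Against the izh2 deletion its values on leaving out single arrays were 0.22 to 0.57 (-0.10 to 0.19 centred). In the izh2 deletion against wild type, values with median centring (also with the replicate block), quantile normalization and centring without chromosome II genes were 0.041, 0.035 and 0.049 for VTC1, 0.076, 0.062 and 0.084 for VTC3 and 0.11, 0.13 and 0.12 for VTC4. On leaving out single arrays they were -0.19 to 0.035 for VTC1 (-0.088 to 0.17 centred), -0.047 to 0.28 for VTC2 (0.13 to 0.33 centred), -0.12 to 0.038 for VTC3 (0.022 to 0.13 centred), -0.056 to 0.047 for VTC4 (0.037 to 0.19 centred) and -0.59 to 0.078 for PPX1 (-0.41 to 0.13 centred).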
